A study of Mus musculus with 12 samples.

Results

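The second step along the anxiety order, from anxious to more anxious mice, was examined across all genes and pathways of the amygdala. The comparison took 8 of the 12 mice of the series, namely all mice whose labels name one of these groups: 4 more anxious mice (mice 2, 6, 9 and 10) and 4 anxious mice (mice 1, 4, 8 and 11). The other samples were 3 less anxious mice, whose mean levels are set beside the result where they help, and mouse 5, which carries no group and was not used. All animals were nulliparous female C57/BL6 mice, an inbred strain, bought at 7 weeks of age and given no drug or genetic change. Each mouse was tested in the elevated plus maze (EPM) at 9 weeks, in the light/dark box (LD) at 10 weeks and in a three-chamber social interaction test (SIT) at 11 weeks. Both amygdalae of a mouse were pooled, and stranded mRNA libraries, 1 per mouse, were sequenced in a single run with single-end reads of 75 bp. The anxiety groups are not independent of the expression data, because the study cut them from the second principal component (PC2) of these same libraries. Each p-value of a gene below thus describes a contrast that was drawn on the values it tests. The study took PC2 as its anxiety axis because it correlated with the EPM and LD measures of these mice. Those measures are therefore not independent of the groups either.

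The amygdala is a group of nuclei in the temporal lobe that assigns threat value to sensory input. Its basolateral nuclei are cortex-like and rich in excitatory neurons, while its central and medial nuclei are built largely of inhibitory neurons that resemble those of the striatum and send the output to hypothalamus and brainstem. Neuropeptides such as corticotropin-releasing hormone, monoamine receptors and the calcium and potassium channels that set neuronal firing are the parts of this circuit most often tied to anxiety.

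Libraries of both groups were similar in depth and composition. Total estimated counts ran from 31745630 to 38049229 in anxious mice and from 33278984 to 45142355 in more anxious mice, and genes of the mitochondrial genome took 9.83% to 14.7% and 9.97% to 14.5% of them. All 15 markers of cortical and basolateral excitatory neurons and all 17 markers of central amygdala and striatal-type neurons exceeded a mean of 1 CPM (counts scaled to library size). So did 9 of 10 thalamic, 8 of 12 hypothalamic and 6 of 9 hippocampal markers. This level therefore does not tell which regions the tissue held. On PC2, recomputed from the counts of the 11 mice with a group (14.7% of the variance), the more anxious mice scored between -25.2 and 0.28 and the anxious mice between -4.40 and 7.59, with mouse 6 of the more anxious group lying among the anxious mice. Because whole tissue was sequenced, fewer cells of a type and less RNA per cell cannot be told apart in any value below.

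Behavior in the EPM and the LD overlapped between the groups. The share of time in the open arms of the EPM, which anxious rodents avoid, was 6.73%, 16.8%, 14.7% and 20.1% in anxious mice 1, 4, 8 and 11 and 2.33%, 29.2%, 4.30% and 3.25% in more anxious mice 2, 6, 9 and 10. Of the 4 more anxious mice, 3 lay below every anxious mouse, while mouse 6 was above all of them. The group means were 9.78% ± 12.99 (SD, n = 4) and 14.6% ± 5.68 (SD, n = 4), and the exact two-sided permutation test gave p = 0.457, where 4 against 4 mice cannot go below 0.0286. Without mouse 6 the difference was -11.3 percentage points, as against -4.82 with it. Total arm entries averaged 23.8 ± 13.2 (SD, n = 4) in more anxious and 24.3 ± 6.65 (SD, n = 4) in anxious mice (exact permutation p = 0.971). Time in the light compartment of the LD averaged 23.6% ± 15.8 and 23.7% ± 6.26 (SD, n = 4 each, exact permutation p = 1), with mouse 6 again the highest of the 8 at 46.6%.

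The social test showed its clearest contrast over time. The box:zone ratio, which sets direct contact at the box of an unfamiliar mouse against distant contact in the zone around it, overlapped between the groups at 3, 5 and 10 min (exact permutation p = 0.6 at each). Its change from 3 to 10 min was 0.105, 0.430 and 0.405 in anxious mice 1, 8 and 11, and it could not be formed for mouse 4, whose label holds no 3 min value. The change was -0.306, -0.0489, -0.640 and 0.0505 in more anxious mice 2, 6, 9 and 10. The groups did not overlap, since every anxious mouse gained more than every more anxious mouse, with means of 0.313 ± 0.181 (SD, n = 3) and -0.236 ± 0.308 (SD, n = 4). The exact two-sided permutation test, with only 35 arrangements of 3 against 4 mice, gave p = 0.0571, and 0.457 after Benjamini-Hochberg adjustment over the 8 measures. The change is a measure computed here and not one of the labels. The study already reports such a pattern in these mice, from its cohort averages of box and zone time. There, box time relative to zone time fell over 10 min in the high anxiety cohort and rose in the lower ones.

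**Figure D1:**
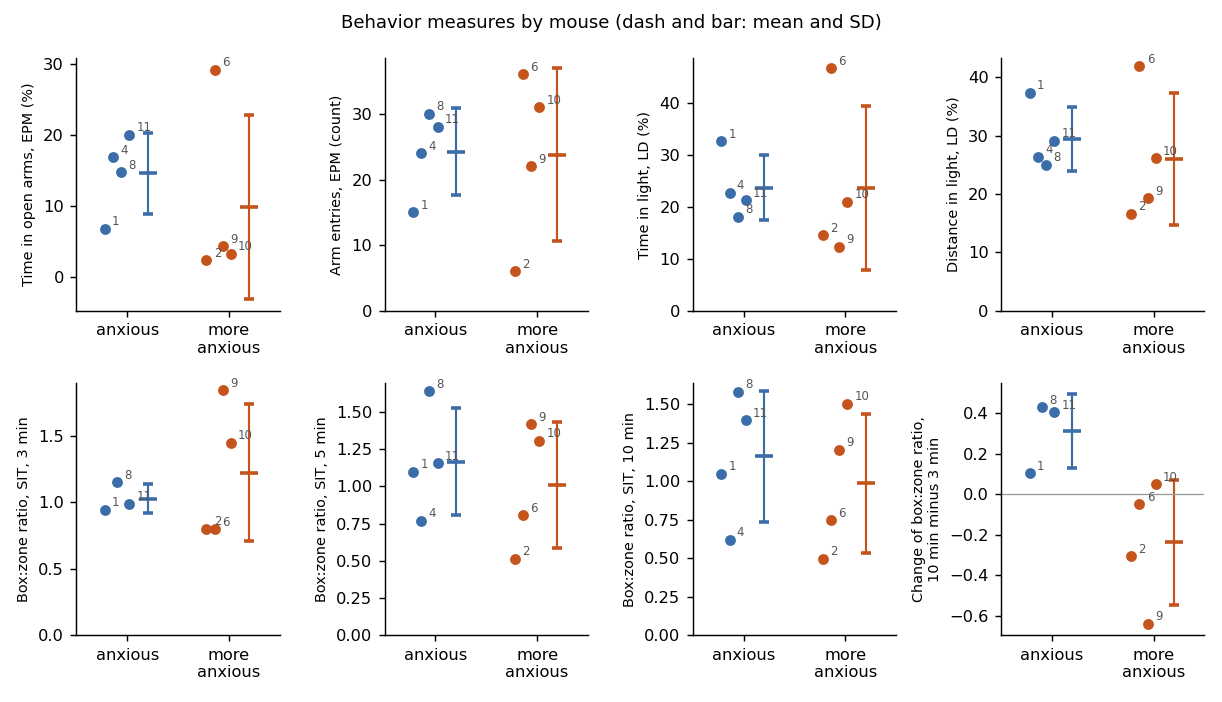
Each panel plots 1 behavior measure of the EPM, LD or SIT for the 4 anxious mice (blue) and the 4 more anxious mice (orange), with the mouse number beside each point and the mean with its SD as a dash and bar. Mouse 6 stands above the rest of the more anxious group in the panels of open arm time (29.2%) and time in light (46.6%), and the last panel, the change of the box:zone ratio, is the only one whose groups do not overlap.

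Across the transcriptome, no gene passed the main test. edgeR's quasi-likelihood test, with PC1 as a covariate, called 0 of 26963 genes (0.0%) at a Benjamini-Hochberg adjusted p under 0.05, and the smallest adjusted p was 0.592. At an unadjusted p under 0.05 stood 1231 genes (4.57%), of which 753 (2.79%) were higher and 478 (1.77%) lower in more anxious mice, and without mouse 2 the total was 1871. With all mice, the share of 4.57% was not above the 0.05 that this threshold gives by chance. DESeq2's Wald test of the same model called 27 genes (0.1%), 21 higher (0.0779%) and 6 lower (0.0223%), with 1110 (4.12%) at an unadjusted p under 0.05. In a single simulated draw in which no gene differed, DESeq2 also made calls while edgeR made none. That draw used edgeR's own estimates of spread, so it does not weigh the tools evenly. Because the tools differed on the real counts, DESeq2's calls and adjusted p-values below are given as description and not as established differences. Of these 27 genes, 6 had a mean under 1 CPM with reads in only 1 or 2 mice, namely Gm9611, Gm20458, Gm7951, Hpd, Gm24095 and Gm43694, and are not described further. Among the 15856 genes with a mean of at least 1 CPM, the log2 fold change was above 0 for 48.5%, its median was -0.01 and its middle range, from the lower to the upper quartile, ran from -0.09 to 0.09. The values of the 2 groups did not overlap for 366 of these genes (2.31%), 231 higher (1.46%) and 135 lower (0.851%) in more anxious mice. Exchangeable values of 4 against 4 mice separate fully at a rate of 0.0286, so this share was not above chance either. Throughout, CPM are scaled with TMM factors, per-mouse values follow the order of mice 1, 4, 8 and 11 (anxious) and 2, 6, 9 and 10 (more anxious), and a log2 fold change is that of edgeR, more anxious minus anxious, with its standard error.

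The genes described singly are the 10 of smallest p in each direction among those with at least 1 CPM and no overlap between groups. Since they were picked for their separation, that separation is no further evidence. All 10 higher genes were also among DESeq2's calls, as were Prl, Gh and Spink8 of the 10 lower genes. The median GC content of their transcripts was 57.3% for the higher and 45.5% for the lower genes. It was 49.3% for all genes with at least 1 CPM, and the trend with GC content is described below. Without PC1 in the model DESeq2 called 11 of its 27 genes, and the calls of Tmem238, Bcl11a, Dnajb6, Spink8, Pparg, Cacna1a, C1qtnf4, Cnot6l, Ift140, BC051142 and the 6 genes of few reads were lost. For Tmem238 the edgeR unadjusted p went from 8.83e-05 to 0.0110 without PC1.

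**Figure D2:**
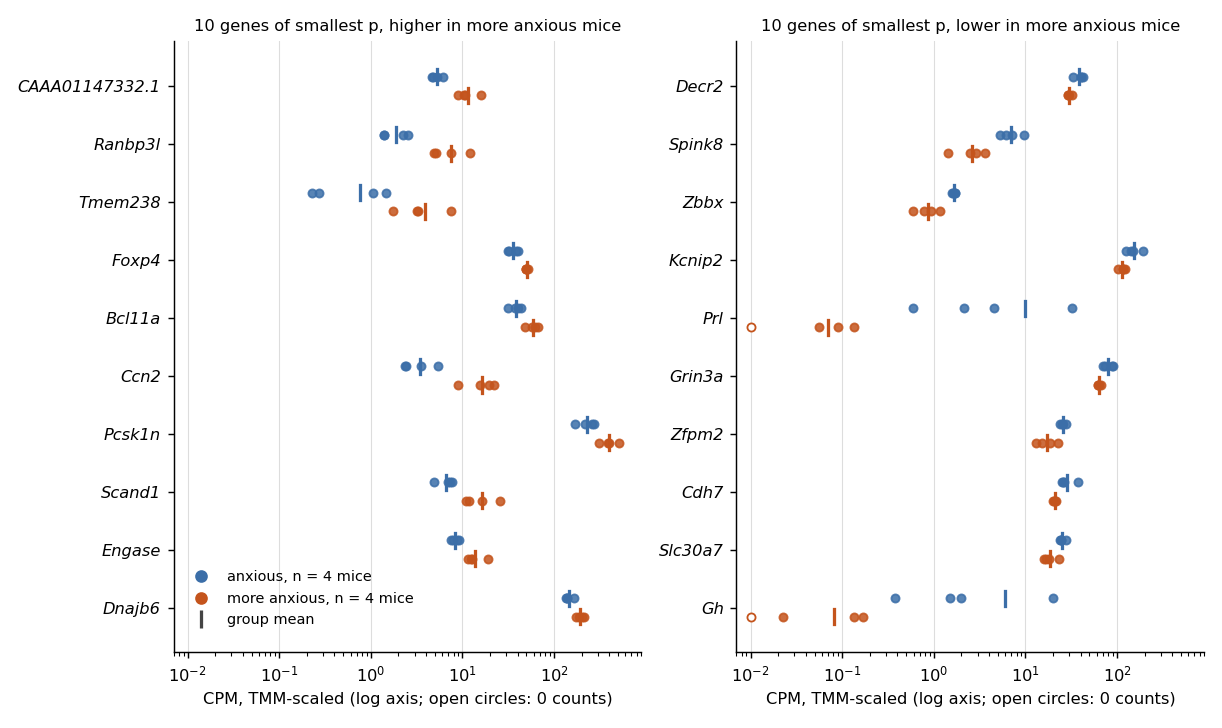
TMM-scaled CPM on a log axis of the 10 genes of smallest p that were higher (left) and lower (right) in more anxious mice, with a point per mouse, a vertical tick for the group mean and open circles at the left edge for 0 counts. The groups are separate for each of the 20 genes, the gap being narrow for genes such as Decr2 (at most 32.1 against at least 33.0 CPM) and wide for Prl and Gh.

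Genes of peptide secretion and growth factor signaling were among those higher in more anxious mice. Pcsk1n (chrX:7919822-7924410, gene span on GRCm38) encodes proSAAS, a secreted granin-like protein that inhibits the prohormone convertase PC1/3. Its level was 169.9, 269.6, 258 and 219 CPM in anxious mice and 393, 390.2, 512 and 312 CPM in more anxious mice. The lowest more anxious mouse, mouse 10, lay above the highest anxious mouse, mouse 4, and the less anxious mean was 156 CPM. The log2 fold change was 0.82 ± 0.17 (edgeR adjusted p = 0.999, DESeq2 adjusted p = 0.00324), and it stayed between 0.63 and 0.91 when each mouse was left out. Ccn2 (chr10:24595442-24598683), the connective tissue growth factor, which cells secrete into the matrix and induce within minutes to hours of stimulation, measured 2.44, 5.43, 2.35 and 3.48 CPM against 19.7, 8.87, 22.1 and 15.4 CPM. All more anxious mice were above all anxious mice, with mouse 6 the lowest of them and mouse 4 the highest of the others. The less anxious mean of 4.61 CPM was close to the anxious mean of 3.43 CPM, and the log2 fold change was 2.19 ± 0.40 (edgeR adjusted p = 0.979, DESeq2 adjusted p = 1.65e-06).

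A pair of genes linked to nuclear receptors stood out in the same direction. Scand1 (chr2:156311847-156312704), a small SCAN domain protein known to bind transcription factors, was at 4.85, 7.37, 7.61 and 6.87 CPM in anxious mice and at 16.2, 11.8, 25.9 and 10.8 CPM in more anxious mice. Mouse 9 was the highest and no values overlapped, while the less anxious mean was lower still at 3.51 CPM. Its log2 fold change was 1.26 ± 0.26 (DESeq2 adjusted p = 0.00209), and the gene overlaps Cnbd2 on the other strand, itself at 5.36 CPM, whose reads cannot be told apart from those of Scand1 where the counting does not use the strand. Pparg (chr6:115360951-115490399), the nuclear receptor PPAR gamma, a target of lipid ligands and of the glitazone drugs, had 0.545, 1.019, 1.06 and 1.03 CPM against 8.91, 4.10, 1.73 and 6.52 CPM. The more anxious mice spread widely, from mouse 9 just above the anxious group to mouse 2 far above it. The log2 fold change was 2.58 ± 0.55 (DESeq2 adjusted p = 0.000106). Of the other measured members of the list of PPAR, RXR and LXR receptors and partners, Nr1h2, the liver X receptor beta, was the only further one at an unadjusted p under 0.05 (log2 fold change 0.21 ± 0.10), and the median over all 12 was 0.03.

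Transcription factors of neuronal development were also higher. Foxp4 (chr17:47867133-47924645), a forkhead repressor, was at 31.3, 40.8, 38.5 and 32.2 CPM in anxious mice and at 49.2, 49.99, 52.1 and 49.2 CPM in more anxious mice. The more anxious mice lay close together and the less anxious mean, 30.3 CPM, was below all of them. Its log2 fold change was 0.49 ± 0.09 (edgeR adjusted p = 0.592, DESeq2 adjusted p = 0.000514). Bcl11a (chr11:24078056-24174123), a zinc finger factor that shapes cortical projection neurons, measured 43.9, 37.9, 40.3 and 31.1 CPM against 66.6, 61.9, 48.5 and 57.3 CPM. Mouse 9 was the lowest of the more anxious group and still above mouse 1, and the log2 fold change was 0.61 ± 0.12 (DESeq2 adjusted p = 0.00437). Among genes of other roles, Ranbp3l (chr15:8967949-9067335), a Ran-binding protein of nuclear export, had 1.38, 2.22, 1.41 and 2.51 CPM in anxious mice and 7.54, 4.91, 5.14 and 12.1 CPM in more anxious mice. Here the less anxious mean of 4.44 CPM was nearer to the more anxious group, and the log2 fold change was 1.93 ± 0.32 (DESeq2 adjusted p = 5.32e-06).

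Genes of neuronal signaling among DESeq2's calls included a G protein and a calcium channel. Gnai2 (chr9:107614125-107635367), the inhibitory G protein subunit that lowers cAMP, was at 127, 140.3, 194 and 117 CPM in anxious mice and at 329, 269, 329 and 192 CPM in more anxious mice. Anxious mouse 8 and more anxious mouse 10 crossed by a small margin, so that it fell outside the rule of no overlap. Its log2 fold change was 0.98 ± 0.17 (edgeR adjusted p = 0.592, DESeq2 adjusted p = 3.05e-05). Cacna1a (chr8:84388440-84640246), the pore subunit of the presynaptic P/Q-type calcium channel, measured 71.6, 105, 124 and 106 CPM against 175, 164, 256 and 142 CPM. No values overlapped, the less anxious mean was 74.5 CPM, and the log2 fold change was 0.88 ± 0.23 (DESeq2 adjusted p = 0.0343). C1qtnf4, a secreted C1q and TNF related protein, had a log2 fold change of 0.90 ± 0.22 (DESeq2 adjusted p = 0.0194), and B3gat1, which makes the HNK-1 sugar of neural adhesion proteins, one of 0.29 ± 0.08 (DESeq2 adjusted p = 0.0469). Cnot6l, a deadenylase that shortens mRNA tails, was at 32.9, 26.0, 29.0 and 26.9 CPM in anxious mice and at 69.6, 39.3, 56.6 and 78.4 CPM in more anxious mice, with a less anxious mean of 56.5 CPM. As with Ranbp3l, the anxious mice were the low group of this gene (log2 fold change 1.10 ± 0.32, DESeq2 adjusted p = 0.0404).

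The remaining higher genes act in protein and glycan turnover or have no firm role. Dnajb6 (chr5:29735688-29818134), an HSP40 cochaperone that keeps polyglutamine proteins from clumping, was at 138, 138, 166 and 136 CPM against 174, 187, 213 and 199 CPM. Mouse 8 stood apart from the other anxious mice but below all more anxious ones (log2 fold change 0.42 ± 0.09, DESeq2 adjusted p = 0.0427). Engase (chr11:118476829-118489209), a cytosolic enzyme that frees N-glycans from proteins, had 8.75, 7.42, 7.80 and 9.17 CPM against 12.3, 11.6, 18.9 and 12.7 CPM, with mouse 9 highest (log2 fold change 0.72 ± 0.16, DESeq2 adjusted p = 0.0387). Tmem238 (chr7:4784557-4789656), a membrane protein, rested on low levels of 0.229, 1.46, 1.06 and 0.273 CPM against 3.20, 7.46, 3.23 and 1.73 CPM. Its log2 fold change of 2.51 ± 0.43 (DESeq2 adjusted p = 1.31e-05) was the largest of the 10. The gene of smallest edgeR p, CAAA01147332.1, lies on the unplaced scaffold JH584295.1 from base 66 to 1479 and was at 4.70, 5.33, 4.74 and 6.09 CPM against 10.4, 9.02, 15.8 and 10.6 CPM (log2 fold change 1.10 ± 0.19, edgeR adjusted p = 0.592, DESeq2 adjusted p = 9.46e-05). Ift140, a subunit of the transport machinery of cilia, was called by DESeq2 as well (log2 fold change 0.43 ± 0.09, adjusted p = 0.0158).

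Neuronal membrane proteins were among the lower genes, with small differences. Kcnip2 (chr19:45791839-45816061), the KChIP2 subunit that carries Kv4 potassium channels to the membrane, was at 141, 124, 149 and 192 CPM in anxious mice and at 123, 116, 115 and 102 CPM in more anxious mice. Mouse 2 and mouse 4 were separated by a narrow margin, and the less anxious mean of 156 CPM lay with the anxious group. The log2 fold change was -0.42 ± 0.11 (edgeR adjusted p = 0.999, DESeq2 adjusted p = 0.41). Grin3a (chr4:49661611-49845744), the GluN3A subunit that makes NMDA receptors less permeable to calcium, measured 70.4, 73.9, 88.4 and 89.4 CPM against 62.7, 66.6, 63.0 and 62.3 CPM. The more anxious mice were close to each other, and the log2 fold change was -0.35 ± 0.10 (DESeq2 adjusted p = 0.439). Cdh7 (chr1:109982431-110140157), a classical cadherin of cell adhesion, had 25.9, 37.4, 26.3 and 25.3 CPM against 21.6, 20.7, 19.9 and 21.04 CPM. Mouse 4 alone stood high, and the log2 fold change of -0.47 ± 0.14 came to -0.31 in the leave-one-out fit where it was smallest.

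Metabolic and regulatory genes made up the rest of the lower genes. Decr2 (chr17:26081208-26090337), a peroxisomal reductase of unsaturated fatty acid breakdown, was at 33.0, 40.0, 40.2 and 42.1 CPM against 30.1, 28.8, 28.8 and 32.1 CPM (log2 fold change -0.38 ± 0.10, DESeq2 adjusted p = 0.131). Spink8 (chr9:109812280-109826633), a Kazal-type serine protease inhibitor, had 5.22, 7.05, 9.53 and 6.15 CPM against 2.91, 3.65, 2.50 and 1.42 CPM. It was called by DESeq2 (log2 fold change -1.40 ± 0.33, adjusted p = 0.0171), and the less anxious mean was 7.26 CPM. Zfpm2, a cofactor of GATA transcription factors, Slc30a7, a zinc transporter of the Golgi, and Zbbx, a B-box zinc finger protein, had log2 fold changes of -0.57 ± 0.16, -0.44 ± 0.13 and -0.91 ± 0.25. None of these 3 was called by DESeq2, and Zbbx measured between 0.599 and 1.70 CPM in the 8 mice.

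Pituitary hormone transcripts were among the largest fold changes, and most of their counts lay in 2 anxious mice. Prolactin and growth hormone are made in the anterior pituitary, the gland below the base of the brain, and their mRNA is scarce in the amygdala itself. Prl (chr13:27057570-27065205) was at 2.15, 31.9, 0.595 and 4.57 CPM in anxious mice and at 0.135, 0.0899, 0 and 0.0557 CPM in more anxious mice, which amounts to 1470 and 11 counts. Mouse 4 held most of the counts, but the other anxious mice also lay above every more anxious mouse, and the less anxious mean was 1.06 CPM. The log2 fold change was -7.03 ± 1.64 (edgeR adjusted p = 0.999, DESeq2 adjusted p = 2.82e-05), and it was -4.86 without mouse 4. Gh (chr11:106300271-106301865) ranked the anxious mice in the same order, with 1.49, 19.9, 0.379 and 1.998 CPM against 0.135, 0, 0.0228 and 0.167 CPM, or 894 and 13 counts (log2 fold change -6.01 ± 1.57, DESeq2 adjusted p = 0.00437, and -3.83 without mouse 4). Cga, the alpha chain shared by several pituitary hormones, was at 0 in all 4 more anxious mice and had 0, 36, 4 and 92 counts in the anxious mice. Against the limit of 3 counts per library its mean was at least 12.5-fold lower in more anxious mice, and that of Fshb, the beta chain of follicle-stimulating hormone, at least 1.76-fold lower.

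The whole list of 7 pituitary hormone genes had summed levels of 2.79 to 57.6 CPM in anxious mice (21.3 ± 25.1, SD, n = 4) and of 2.30 to 2.96 CPM in more anxious mice (2.74 ± 0.2996, SD, n = 4). Of the 7 genes, 6 were lower in more anxious mice, 5 of them at an unadjusted p under 0.05, and the median log2 fold change was -5.44, or -1.72 with Cga and Fshb set at their limits. Tshb, the beta chain of thyrotropin, was not lower, with a log2 fold change of 0.38 ± 0.27, and Pomc, the precursor of ACTH and beta-endorphin, which neurons also make, had one of -1.33 ± 0.52. Without anxious mice 4 and 11, the pair with the most such counts, the median over the 5 genes with a value was 0.12, Cga and Fshb having none in that fit, Pomc stood at 0.12 and Lhb at 0.41, while Prl and Gh kept values of -4.22 and -3.46. Whether pituitary tissue was carried along in the dissection of those mice was not tested.

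**Figure D3:**
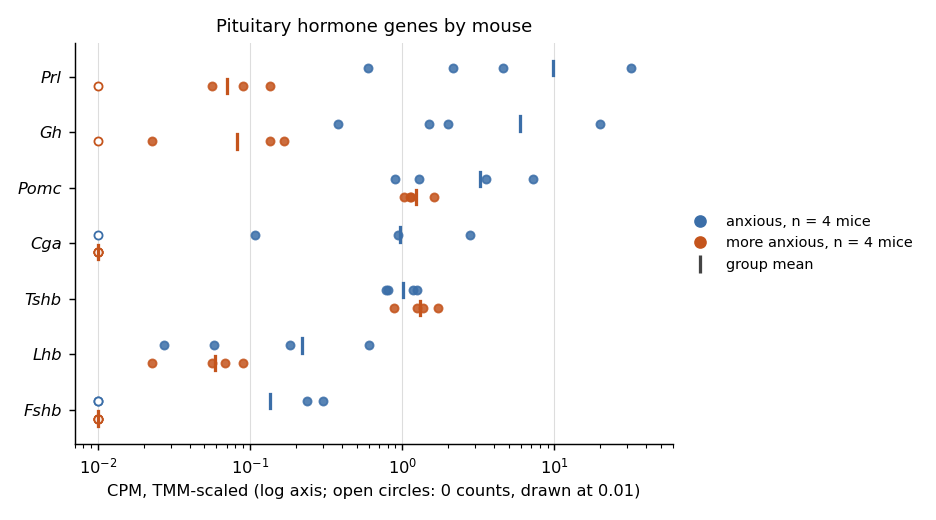
TMM-scaled CPM on a log axis of the 7 pituitary hormone genes in the 4 anxious (blue) and 4 more anxious mice (orange), with ticks for group means and open circles, drawn at the left edge, for 0 counts. Prl and Gh are separate between the groups, Cga and Fshb are at 0 in every more anxious mouse, and for Tshb more anxious mouse 2 lies within the anxious range and the other more anxious mice above it.

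Promoters of the named genes were read from RefSeq (GRCm38.p6, 250 bases before to 50 after the start), which held 8 of the 10 higher and 6 of the 10 lower genes. The 4 given here were chosen because they carry the contrast between the peptide inhibitor and SCAN domain genes that were higher and the channel subunit and pituitary hormone genes that were lower. Capitals mark the GC box GGGCGG, read as CCGCCC on the other strand, or, in Prl, the TATA box TATAAA, which is found on both strands in overlapping letters. Pcsk1n (chrX:7919572-7919871, plus strand) is 58.7% GC with 1 GC box, and Scand1 (chr2:156312655-156312954, minus strand) is 61.3% GC with 2. Kcnip2 (chr19:45816014-45816313, minus strand) is 67.0% GC with 2 GC boxes, and Prl (chr13:27057320-27057619, plus strand) is 38.0% GC with none.
Pcsk1n: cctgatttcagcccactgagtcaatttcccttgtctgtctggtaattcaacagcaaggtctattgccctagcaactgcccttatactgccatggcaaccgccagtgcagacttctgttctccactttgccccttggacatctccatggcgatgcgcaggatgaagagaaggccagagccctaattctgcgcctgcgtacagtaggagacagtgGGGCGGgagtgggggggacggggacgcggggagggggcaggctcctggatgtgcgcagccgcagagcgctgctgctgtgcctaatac
Scand1: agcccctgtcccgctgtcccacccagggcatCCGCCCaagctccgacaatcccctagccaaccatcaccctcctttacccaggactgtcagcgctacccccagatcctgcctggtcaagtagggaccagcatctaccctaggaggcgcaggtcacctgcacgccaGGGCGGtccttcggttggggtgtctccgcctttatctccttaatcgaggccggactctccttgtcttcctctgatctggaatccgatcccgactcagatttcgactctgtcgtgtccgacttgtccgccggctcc
Kcnip2: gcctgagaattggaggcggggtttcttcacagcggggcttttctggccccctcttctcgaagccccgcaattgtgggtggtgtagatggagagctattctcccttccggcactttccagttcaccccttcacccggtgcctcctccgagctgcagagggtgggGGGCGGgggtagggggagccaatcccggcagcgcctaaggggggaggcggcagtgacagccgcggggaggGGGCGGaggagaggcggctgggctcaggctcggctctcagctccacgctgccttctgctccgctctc
Prl: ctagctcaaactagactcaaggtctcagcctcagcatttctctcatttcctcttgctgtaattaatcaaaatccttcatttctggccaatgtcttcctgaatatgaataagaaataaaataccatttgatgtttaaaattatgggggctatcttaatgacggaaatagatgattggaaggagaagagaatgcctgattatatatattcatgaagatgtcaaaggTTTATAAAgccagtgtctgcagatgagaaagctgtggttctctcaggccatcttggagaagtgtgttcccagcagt

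A GC box stood in 7 of the 8 promoters of higher genes and in 3 of the 6 of lower genes, against 35.7% of all 32851 promoters of the same length. The median GC content was 61.7% (range 50.3% to 70.3%) in the higher and 63.5% (38.0% to 67.0%) in the lower genes, both above the 52.7% of all promoters, and the ranges overlapped. The TATA box occurred in none of the higher and 1 of the lower promoters (13.6% of all), and the full cAMP response element TGACGTCA, a palindrome, in none of either (1.79% of all). A match describes these letters only and is no evidence of binding.

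The genes that the study names from its sequencing were selected on these samples, so their direction here is not independent evidence. Gh and Rgs9 were listed with them, although the main text of the study does not name these genes. Of 20 tested, 15 were higher in more anxious mice with a median log2 fold change of 0.45, which was 0.29 after the correction for GC content, and 6 were among DESeq2's calls, namely Prl, Gh, Scand1, Pparg, Gnai2 and Cacna1a. Nrxn2, a presynaptic neurexin that bridges to postsynaptic partners, was at 385, 323, 358 and 303 CPM in anxious mice and at 473, 519, 549 and 422 CPM in more anxious mice. No values overlapped, the less anxious mean was 287 CPM, and the log2 fold change was 0.52 ± 0.13 (edgeR unadjusted p = 0.00113, DESeq2 adjusted p = 0.128). Nxph3, a secreted neurexin ligand, followed at 1.03 ± 0.31, with mouse 6 at 7.61 CPM below anxious mouse 8 at 8.80 CPM. E2f3, a cell cycle transcription factor, was at 0.88 ± 0.32, Rps6kb2, a ribosomal S6 kinase that overlaps Coro1b (58.2 CPM) on the other strand, at 0.49 ± 0.18, and Atn1, the atrophin corepressor, at 0.23 ± 0.10, each at an unadjusted p under 0.05 with overlapping groups. Egr4 (0.45 ± 0.23), Nrgn (0.29 ± 0.16), Cltb (0.16 ± 0.09), Rgs9 (0.44 ± 0.36), Hspa1a (0.12 ± 0.12), Adgrl4 (-0.43 ± 0.26) and Kcnj13 (-0.70 ± 0.78) did not reach that level. Pomc was lower at -1.33 ± 0.52 (edgeR unadjusted p = 0.0269) with overlapping groups, and at 0.12 without anxious mice 4 and 11. Pomc and Adgrl4 were thus both lower in this step. The study reports both as increased with anxiety, from a test across all its anxiety groups. Less anxious means were 0.917 CPM for Pomc and 16.9 CPM for Adgrl4, against more anxious means of 1.23 and 8.11 CPM. Capn11, a calpain, had 0.172, 5.30, 7.23 and 0.151 CPM in anxious mice and 10.6, 2.64, 0.933 and 1.92 CPM in more anxious mice. Its spread within each group was larger than the difference between them (log2 fold change 1.36 ± 0.91, with 0.33 without mouse 2 and 2.16 without mouse 6).

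Gene lists were described by their counts beside those of all genes, among which 50.6% were higher in more anxious mice, 2.79% were higher and 1.77% lower at an unadjusted p under 0.05. No member of any list was called by edgeR. Over 54 lists of pathways, cell type markers and the genes that the study names, the median log2 fold change was above 0 in 34 and below 0 in 20. The sign of the median changed for 29 of the 54 lists when at least 1 of the 11 mice was left out, and was kept throughout for 25. The summed level of a list did not overlap between the groups for 3 of them, namely synaptic adhesion genes and calcium channel subunits (higher) and thalamic markers (lower), where 2.31% of single genes did not overlap. In each of the 3 lists the separation was lost without the member that differed most, namely Nrxn2, Cacna1a and Calb2. The removal of other members was not tried. Named members that share their position with a gene on the other strand include Dbp with Sphk2 (22.5 CPM), Cebpb with Tmem189 (41.6 CPM), Kcnj13 with Gigyf2 (61.9 CPM) and H1fx with Gm5577 (6.43 CPM), and their reads may not be told apart.

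Synaptic lists were higher by small amounts. Of 33 genes of synaptic vesicle release, 27 were higher in more anxious mice with a median log2 fold change of 0.10, which stayed between 0.09 and 0.15 when each mouse was left out. Syt2, a fast calcium sensor of release that overlaps Ppp1r12b (115 CPM) on the other strand, was at 0.49 ± 0.20 and Doc2b, a sensor of spontaneous release, at -0.52 ± 0.21, and these were the 2 members at an unadjusted p under 0.05. Of 25 postsynaptic scaffold and CaM kinase II genes, 20 were higher (median 0.09), among them Homer2, which links glutamate receptors to calcium stores, at 43.4, 39.5, 38.7 and 49.5 CPM against 60.9, 57.3, 55.0 and 54.1 CPM. These values did not overlap, and neither did those of Prr7, a postsynaptic density protein at 10.4, 16.6, 16.9 and 17.2 CPM against 22.4, 23.3, 38.5 and 18.3 CPM (log2 fold changes 0.40 ± 0.11 and 0.73 ± 0.23). Summed over 27 neurexins, neuroligins and other adhesion genes, the level was 2487, 2232, 2520 and 2480 CPM in anxious mice and 2607, 2834, 2646 and 2551 CPM in more anxious mice, while the median of the members was 0.03. Without Nrxn2, a choice made after seeing the values, the sums overlapped, at 1909.5 to 2177 CPM against 2097 to 2315 CPM. The 21 calcium channel subunits summed to 2397, 2349, 2271 and 2387 CPM against 2450, 2549, 2557 and 2479 CPM, with 17 higher and a median of 0.08 that was 0.04 after a correction for GC content. Without Cacna1a these sums overlapped as well, at 2147 to 2325 CPM against 2275 to 2385 CPM. Cacna1g, a T-type channel that supports burst firing, went against the rest at -0.18 ± 0.09 without overlap.

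Receptor lists had no common direction. Ionotropic glutamate receptor subunits were higher for 8 of 18 (median -0.03), with Gria1, the GluA1 subunit of AMPA receptors, at -0.30 ± 0.11. Grin3b, the companion of Grin3a, was higher at 2.09 ± 0.55 but at no more than 0.390 CPM, and it overlaps Tmem259 (82.2 CPM) on the other strand. Metabotropic glutamate receptors (4 of 7, median 0.00), GABA receptors, synthesis and transport (9 of 22, -0.03) and endocannabinoid genes (5 of 8, 0.03) had no member at an unadjusted p under 0.05. Of 24 serotonin, adrenergic and dopamine receptors, 15 were higher (median 0.05). Adrb1, the beta-1 adrenergic receptor, measured 12.8, 15.0, 14.5 and 12.6 CPM in anxious mice and 16.5, 17.0, 17.8 and 18.4 CPM in more anxious mice. The groups did not overlap and the less anxious mean was 12.0 CPM (log2 fold change 0.34 ± 0.11), whereas Htr4, a serotonin receptor, was at -0.69 ± 0.31. Beside Gnai2, the G protein subunits gave 15 of 21 higher with a median of 0.04, and the RGS proteins that switch them off 11 of 15 with a median of 0.08, Rgs3 standing at 0.36 ± 0.14. Potassium channels were higher for 26 of 37 (median 0.08), led by Kcnk2, a leak channel, at 0.38 ± 0.16 and Kcnj4, an inward rectifier, at 0.37 ± 0.16.

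Stress and peptide systems were mixed. Crh, corticotropin-releasing hormone, was at 6.31, 5.28, 4.33 and 4.66 CPM in anxious mice and at 5.55, 5.81, 5.44 and 7.08 CPM in more anxious mice, which overlapped (log2 fold change 0.21 ± 0.17). Its relative Ucn, urocortin, measured 0.143, 0.183, 0.298 and 0.121 CPM against 0.226, 0.869, 0.751 and 0.641 CPM. Mouse 2 alone lay within the anxious range, and the log2 fold change was 1.76 ± 0.45 (edgeR unadjusted p = 0.00171) at a level of few reads. The list of 7 had 5 higher (median 0.10, and -0.02 without mouse 2). Glucocorticoid receptors and targets were higher for 10 of 17 (median 0.01), with Mt1, a metallothionein, at 0.33 ± 0.14 and Fkbp5, the cochaperone of the receptor, at -0.17 ± 0.11. Opioid peptides and receptors were higher for 2 of 8 (median -0.20), and neuropeptides for 11 of 23 (median -0.09). Within the latter, Tac2, neurokinin B, was at 20.6, 22.7, 12.0 and 17.1 CPM against 10.3, 10.6, 12.1 and 10.8 CPM (log2 fold change -0.73 ± 0.24), overlapping in mouse 8 only. Cck, cholecystokinin, went the other way at 0.45 ± 0.19, and Vgf, a granin-like peptide precursor listed with Pcsk1n, was at 0.30 ± 0.11. Of that list of 11 processing enzymes and granins, 6 were higher (median 0.05), and Pcsk1, the convertase that proSAAS inhibits, was at -0.20 ± 0.10.

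Gonadal steroid receptors, aromatase and the receptors of prolactin and growth hormone were lower for 10 of 12 (median -0.14, with -0.04 without mouse 1 and -0.24 without mouse 2). Esr1, the estrogen receptor alpha, was at 15.8, 10.7, 16.9 and 26.3 CPM in anxious mice and at 16.1, 11.7, 8.31 and 9.48 CPM in more anxious mice, overlapping in mice 2 and 6 (log2 fold change -0.61 ± 0.30), and no member was at an unadjusted p under 0.05. Nitric oxide and cGMP genes were higher for 6 of 14 (median -0.03). Nos1, the neuronal nitric oxide synthase, measured 121, 119, 129.6 and 131 CPM against 146, 94.6, 72.3 and 70.1 CPM, with mouse 2 above and the other more anxious mice below the anxious group (log2 fold change -0.40 ± 0.19). Without mouse 2 the median of this list was 0.10.

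Activity-induced immediate early genes, which neurons switch on within minutes of firing, were higher for 23 of 32 with a median of 0.14. After a correction for GC content the median was 0.10. The uncorrected median depended on single mice, being -0.03 without mouse 10 and 0.29 without mouse 6. Besides Ccn2, the members at an unadjusted p under 0.05 were Jund, Ier5l and Cebpb, all higher. These 3 are rich in GC, at 67.1%, 63.8% and 67.2%, and Ccn2 is not, at 49.2%. GC-rich genes tended to be higher across the transcriptome, as described below. Jund, an AP-1 factor, was at 57.7, 86.4, 83.6 and 69.9 CPM in anxious mice and at 117, 107, 147 and 93.6 CPM in more anxious mice. The groups did not overlap, and the log2 fold change was 0.66 ± 0.16 (edgeR unadjusted p = 0.00113, DESeq2 adjusted p = 0.0568). In the clock list, higher for 12 of 17 (median 0.06), Dbp, an output factor of the circadian clock, was at 37.1, 38.4, 38.5 and 36.8 CPM against 41.3, 46.6, 58.5 and 49.2 CPM. The anxious mice were almost equal and below all more anxious mice (log2 fold change 0.37 ± 0.12).

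Metabolic and housekeeping lists showed small, broad differences. Of 80 nuclear-encoded subunits of oxidative phosphorylation, 61 were higher (median 0.09, range 0.03 to 0.16 over the leave-one-out fits). Cox8a and Cox6a1, small subunits of cytochrome oxidase, did not overlap (log2 fold changes 0.43 ± 0.14 and 0.30 ± 0.12). Another 1 of the subunits did not overlap in the lower direction, where 2.31% of all genes with at least 1 CPM did not overlap. Of 22 cholesterol synthesis genes, 18 were higher (median 0.12), with Insig1, the sterol sensor of the pathway, at 0.33 ± 0.13 and Lss, lanosterol synthase, at 0.44 ± 0.18. Cytosolic ribosomal protein genes were higher for 53 of 83 (median 0.05, and -0.01 without mouse 11) and mitochondrially encoded genes for 11 of 13 (median 0.05, and -0.09 without mouse 11). Proteasome subunits were higher for 18 of 37 (median -0.01). The S6 kinase, Akt and mTOR list was higher for 13 of 21 (median 0.02), in which Pik3r3, a regulatory subunit of PI3 kinase, stood at 44.0, 44.4, 43.9 and 47.6 CPM against 40.3, 39.03, 37.6 and 38.6 CPM without overlap (log2 fold change -0.22 ± 0.08). Heat shock chaperones were higher for 8 of 21 (median -0.03), with Dnajb6 higher and Hsph1, an HSP110 chaperone, at -0.23 ± 0.08, both without overlap.

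Chromatin lists held opposite members. Histone methylation, deacetylation and Polycomb enzymes were higher for 15 of 42 (median -0.05). Ring1, a ubiquitin ligase of Polycomb, was at 32.8, 38.2, 34.9 and 38.9 CPM against 49.8, 44.5, 53.3 and 42.5 CPM without overlap (log2 fold change 0.38 ± 0.10), while Kdm5b, a histone H3 demethylase, was at -0.31 ± 0.10. Of 18 polyadenylated and variant histones, 13 were higher (median 0.04), 4 of them at an unadjusted p under 0.05, with H2afj at 0.79 ± 0.22 and H1fx at 0.62 ± 0.17. Interferon and MHC class I genes were higher for 8 of 21 (median -0.05), and Trim30a, an interferon-induced regulator, was at 0.889, 1.36, 0.731 and 1.36 CPM against 2.55, 2.34, 1.84 and 2.56 CPM (log2 fold change 1.10 ± 0.27). The less anxious mean of Trim30a, 2.92 CPM, was on the side of the more anxious mice. Neurotrophin genes (3 of 8, median -0.04), perineuronal net genes (8 of 13, 0.02) and calpains (6 of 13, -0.04) stayed close to the middle of all genes.

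**Figure D4:**
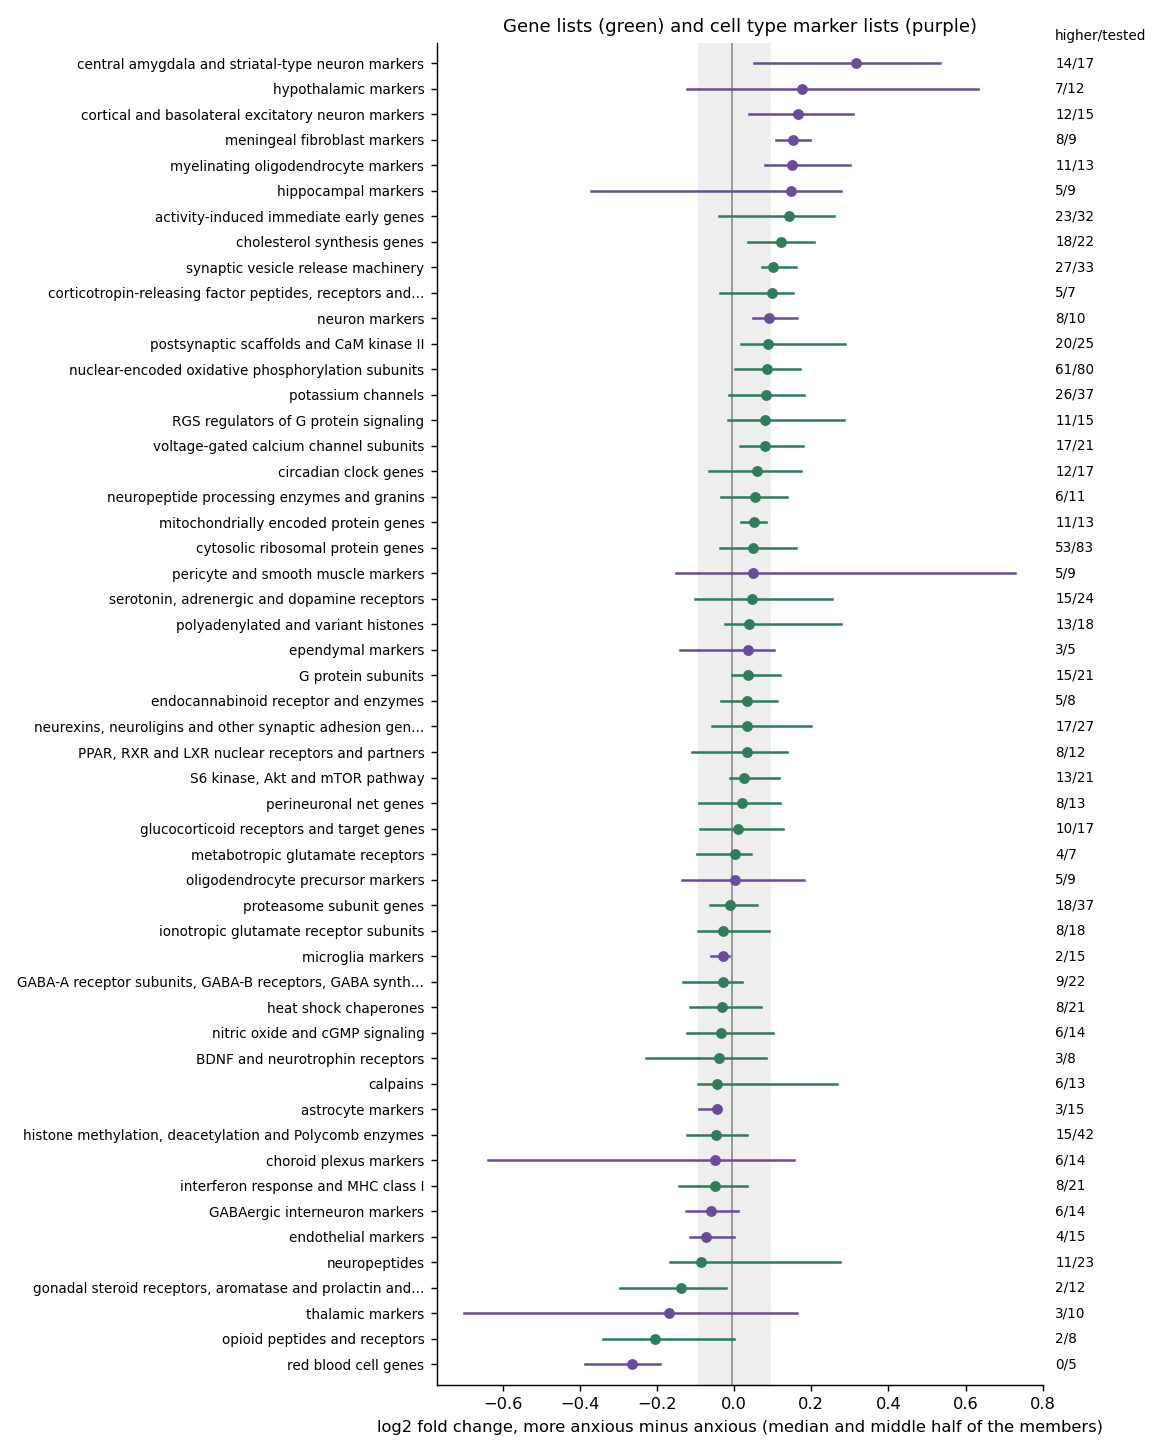
Each line is a gene list (green) or a cell type marker list (purple), with the median log2 fold change of more anxious minus anxious mice as a point and the span from the lower to the upper quartile of its members as a bar. The gray line and band give the median (-0.01) and quartiles (-0.09 to 0.09) of all genes with at least 1 CPM, the numbers at the right how many members were higher of those tested, and most medians, such as 0.10 for synaptic vesicle release, lie in or near the band. The pituitary list (median -5.44) and the genes that the study names are left out.

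The highest median among cell type markers was that of central amygdala and striatal-type neurons, whose sums overlapped. Of 17 such markers 14 were higher (median 0.32), with summed levels of 970, 594, 593 and 544 CPM in anxious mice and 638, 1145, 866 and 772 CPM in more anxious mice. Anxious mouse 1 lay among the more anxious mice, the median was 0.07 without mouse 8 and 0.61 without mouse 1, and it was -0.01 without anxious mice 4 and 11 together. Foxp1, a striatal transcription factor, was at 0.63 ± 0.22, Drd1, the D1 dopamine receptor, at 0.50 ± 0.28, and Prkcd, which marks a class of central amygdala neurons, at -0.61 ± 0.29. Markers of cortical and basolateral excitatory neurons were higher for 12 of 15 (median 0.16). Their sums were 1992, 2119, 2103 and 2107 CPM against 1882, 2356, 2777 and 2560 CPM, where mouse 2 was the lowest and the other more anxious mice the highest of the 8. Tbr1 and Cux2, transcription factors of excitatory neurons, were at 0.58 ± 0.18 and 0.43 ± 0.15. Myelinating oligodendrocyte markers were higher for 11 of 13 (median 0.15), but their sums overlapped widely, from 1767 to 3479 CPM against 2306 to 3133 CPM, and the median was 0.00 without mouse 11.

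Thalamic markers were lower, with sums of 255, 253, 282 and 260.5 CPM in anxious mice and 212, 231, 193 and 242 CPM in more anxious mice. Of 10 tested 3 were higher (median -0.17, and 0.14 without mouse 1), and Calb2, calretinin, which is also made by amygdala interneurons, had the largest part in the difference of the sums, at 60.1, 88.1, 122 and 91.3 CPM against 70.3, 51.3, 45.6 and 45.1 CPM. Only mouse 2 overlapped with the anxious group for Calb2 (log2 fold change -0.76 ± 0.25), and without this gene the sums overlapped, at 159.7 to 195 CPM against 142 to 197 CPM. Interneuron markers were higher for 6 of 14 (median -0.06), hypothalamic markers for 7 of 12 (0.18, and -0.07 without mouse 2) and hippocampal markers for 5 of 9 (0.15, and -0.05 without mouse 10). Of the hypothalamic markers, Avp, vasopressin, was carried by mouse 6 with 21.3 CPM, where the other 7 mice were at 0.394 to 7.37 CPM. Non-neuronal lists were close to even or slightly lower: astrocytes 3 of 15 higher (median -0.04), microglia 2 of 15 (-0.03), endothelium 4 of 15 (-0.07), oligodendrocyte precursors 5 of 9 (0.00), pericytes and smooth muscle 5 of 9 (0.05), choroid plexus 6 of 14 (-0.05), ependyma 3 of 5 (0.04) and red blood cells 0 of 5 (-0.26, and 0.01 without mouse 4). Meningeal fibroblast markers, 8 of 9 higher (0.15), were at -0.21 without mouse 10, and general neuron markers were higher for 8 of 10 (0.09). Ptprc, the CD45 of microglia and other leukocytes, was the one microglial marker at an unadjusted p under 0.05, with 16.1, 12.1, 6.33 and 11.4 CPM against 4.72, 5.81, 9.22 and 5.02 CPM (log2 fold change -0.89 ± 0.22). The part of tissue composition in the gene differences above was not tested.

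The direction of a gene followed its GC content. Across 15792 genes with at least 1 CPM and a known sequence, the log2 fold change had a Spearman correlation of 0.25 with GC content and -0.12 with transcript length, given as a description since genes share libraries. From the lowest to the highest of 4 equal bins of GC content, 35.01%, 41.9%, 51.7% and 65.3% of genes were higher in more anxious mice. At an unadjusted p under 0.05, the lowest bin held 48 higher and 101 lower genes and the highest 263 higher and 36 lower. The median GC content was 55.6% for higher genes at that level, 46.6% for lower ones and 49.3% for all. With an offset for GC content fitted per library, the medians of the bins lay between -0.01 and 0.00, and 1144 genes were at an unadjusted p under 0.05, 687 higher and 457 lower, with 0 called by edgeR. The pattern was not shared by all mice of a group. The correlation of a mouse's deviation with GC content was -0.30, -0.01, 0.19 and -0.23 in anxious mice and 0.01, 0.20, 0.29 and -0.17 in more anxious mice, so that mouse 8 and mouse 10 went against their groups. Whether library preparation or regulation lies behind it was not tested.

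**Figure D5:**
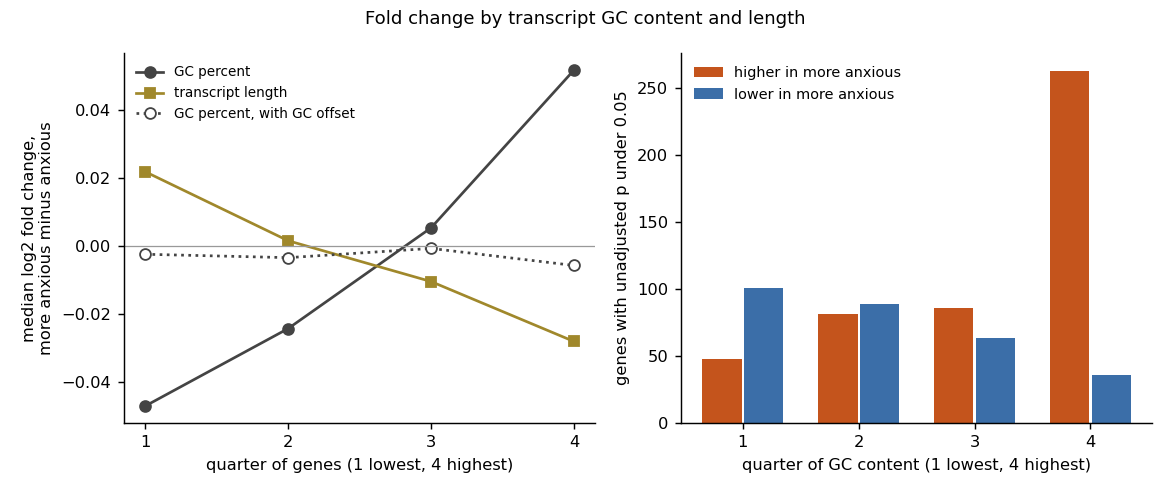
Left, the median log2 fold change of more anxious minus anxious mice in 4 equal bins of genes by GC content (circles, open and dotted after a GC offset) or transcript length (squares). Right, the number of genes with an unadjusted p under 0.05 per bin of GC content that were higher (orange) or lower (blue) in more anxious mice, which runs from 48 against 101 in the lowest to 263 against 36 in the highest bin.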

How the data were processed

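Amygdala mRNA of each mouse was sequenced on a NextSeq500 with single-end 75 bp reads. Trimming was followed by alignment to mm10 for quality checks, and the authors estimated transcript abundance with Salmon, summed it to genes and deposited the estimated counts (expected counts) as whole numbers without normalization for 47729 genes. The annotation release, tool versions and any use of strand in the counting are not given in the sources used here. Columns of no sample numbered 0, and 0 values were not whole. Coordinates and GC content came from GENCODE M21 (47310 genes matched, 99.1%) and promoters from RefSeq GRCm38.p6.

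From these counts, edgeR 4.0.16 (R 4.3.3) with TMM factors, robust quasi-likelihood fits and PC1 as a covariate tested more anxious against anxious in a model of all 11 mice with a group, for genes with at least 10 counts in total. The less anxious mice entered that fit to share the estimates of spread and of the PC1 slope. Calls were made at a Benjamini-Hochberg adjusted p under 0.05. DESeq2 1.42.0 (Wald test, same model) was an alternative, and adjusted p-values that it left out stayed missing. Other steps used pandas 2.3.3, scipy 1.17.1 and numpy 2.4.6 under Python 3.11.15, and figures matplotlib 3.10.9. Behavior was compared with exact two-sided permutation tests. No pair of the 8 libraries agreed within sampling noise (mean chi-square per gene at least 19.3). A limit of 3 counts was 0.0665 to 0.0945 CPM, and limits cover counting error only. The samples are separate mice.

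Named genes were the 10 of smallest p per direction with a mean of at least 1 CPM and no overlap between groups, up to 4 members of smallest p in each list, DESeq2's calls and the genes that the study names. The comparison, the lists and the rule were chosen with earlier results of these data known. The alternatives covered size factors, count filter, test, robust option, covariate, the 8 mice alone, GC offset and each mouse left out. The procedures were tested on simulated data, where edgeR made no call and DESeq2 made some when no gene differed. These data were a single draw from edgeR's own estimates of spread. Sums of 3 lists without the member that differed most were added after seeing the data.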

Additional observations from a re-analysis of the deposited data

Results flagged for a closer look

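Single mice lay far from the rest of their group, by Dixon's test for 4 samples, in 20 of 196 groups examined (10.2%), where chance gives about 5%. In behavior this held for the open arm time of more anxious mouse 6 (29.2%). Among genes, anxious mouse 4 was far above its group for Prl (31.9 CPM), Gh (19.9 CPM) and Cdh7 (37.4 CPM), anxious mouse 8 for Dnajb6 (166 CPM), and anxious mouse 1 far below it for Pparg (0.545 CPM). More anxious mouse 9 was far above its group for Engase (18.9 CPM), mouse 6 for Grin3a (66.6 CPM) and mouse 10 for Kcnj13 (1.20 CPM).

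Summed list levels stood apart in anxious mouse 1 for opioid genes (499 CPM), monoamine receptors (306 CPM) and central amygdala and striatal-type markers (970 CPM), which were high, and for cortical and basolateral markers (1992 CPM), which were low. Anxious mouse 4 was low for synaptic adhesion genes (2232 CPM), mouse 8 high for proteasome subunits (3025 CPM) and mouse 11 low for hippocampal markers (333 CPM). More anxious mouse 2 was low for vesicle release genes (14456 CPM) and cholesterol synthesis (1323 CPM), and mouse 10 low for neuropeptides (824 CPM) and high for interferon and MHC class I genes (269 CPM).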

How the results depend on the processing

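The count of called genes depended on the tool. edgeR called 0 genes and DESeq2 27 (21 higher, 6 lower), and over the edgeR fits that left out each mouse it was 0 to 1, with 0 to 1 higher and 0 to 1 lower. Without mouse 1 the call was Cga (log2 fold change -8.95, adjusted p = 0.0354), and without mouse 2 it was Plk5 (0.73, adjusted p = 0.0314), a kinase named after its value was seen. Genes at an unadjusted p under 0.05 ranged from 926 without mouse 9 to 1871 without mouse 2 (551 to 1090 higher, 362 to 781 lower). Chosen after seeing the data, the removal of anxious mice 4 and 11 gave 0 calls and 784 genes at that level (492 higher, 292 lower) with edgeR, and 25 calls (22 higher, 3 lower; 13 of the 27 remained) and 629 genes (411 higher, 218 lower) with DESeq2. DESeq2 without mouse 6, also added then, called 44 (30 higher, 14 lower; 20 of the 27 remained), and without PC1 it called 11, all among the 27. The causes of these differences were not tested, beyond the smaller number of mice.

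All 20 genes named for their separation kept their direction in every alternative. This follows largely from their selection for no overlap on the same counts and is no further evidence. Of the named genes' other values, 4703 stayed on their side of the threshold and 28 passed it only in an alternative; of list medians 1096 moved by less than the spread between mice and 38 by more. All 70 behavior alternatives kept their side of the threshold. This is little support, because those that left out a mouse had at most 35 arrangements in the exact permutation test. No paired analysis was possible because replicate numbers were given in accession order and tie no mice together. Groups of 4 mice and a grouping cut from these libraries limit what any p-value here can show.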
